A study of Mus musculus with 55 samples.

Results

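The genes of the synaptic vesicle release machinery were followed through mouse small cell lung cancers grown from edited organoids. Members were chosen by a pattern of symbols, with earlier results of these data known. The pattern takes the synaptotagmins (Syt), syntaxins (Stx), syntaxin binding proteins (Stxbp), and Snap and Vamp proteins. It also takes complexins (Cplx), Rims and Unc13 proteins, synapsins (Syn) and the Sv2 vesicle glycoproteins. The pattern found 70 genes. Of these, 64 stood among the 15479 genes of the table comparing PRMK with PRM tumours. All 70 stood among the 51912 genes of the table comparing sgMeis2 with sgScramble samples. In each comparison 61 members passed the filter on low counts, of 13914 and 16260 genes tested, so the members that are not named in a result below include some with almost no reads. Gene bodies could be placed on the GRCm38.p6 annotation for 69 members.

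Release of a synaptic vesicle begins with its capture at the active zone, where Rims proteins hold vesicles near calcium channels and Unc13 proteins prime them. The syntaxin Stx1a and Snap25 in the plasma membrane zip together with Vamp2 on the vesicle, clamped by complexins, until a synaptotagmin binds calcium and the membranes fuse. Neuroendocrine cells, the cell state from which most small cell lung cancers take their character, release peptide granules with the same proteins, and the family also holds relatives that serve membrane traffic in every cell.

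Of the 55 samples of the series, 12 RNA libraries in 4 groups of 3 and 26 peak libraries in 13 groups of 2 are described here. PRM tumours carried guides against Trp53 and Rb1 and an expressed Myc complementary DNA. PRMK tumours are named for an added guide against Kmt2c, which encodes a histone H3 lysine 4 methyltransferase, although the labels of the PRMK RNA samples list no such guide. The sgMeis2 and sgScramble samples were PRMK lung samples with a further guide against the homeobox gene Meis2 or a scrambled guide. Whether their RNA came from whole tumours or from cells was not tested. All organoids had been placed in the left lung lobe of recipient mice and the tumours were taken from the lung, apart from liver PRM samples for open chromatin, H3K4me1 and KMT2C. Open chromatin was measured by ATAC in organoids, and the histone marks and KMT2C by CUT&Tag, in which an antibody directs the cutting enzyme. The labels used here give no age, sex or strain for the mice, and nothing in them ties replicates to different animals. Each p-value therefore reflects only how far these samples spread, which may be technical. For PRMK, the H3K4me2, H3K4me3 and KMT2C pairs each join 1 library listed with the Meis2 guide (replicate 1) and 1 with the scrambled guide (replicate 2).

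Total counts ran from 12013253 to 24389041 per RNA library. Levels are given as CPM, the share of a library's counts after TMM scaling, in the order of PRMK libraries 1, 2 and 3 and PRM libraries 4, 5 and 6. Kmt2c itself stood at 85.1, 84.4 and 105 CPM in PRMK and 113, 187 and 67.6 CPM in PRM, and the groups overlapped (edgeR log2 fold change -0.42, adjusted p = 0.585). A guide edits DNA and need not lower a transcript, so this level does not check the label. Library PRM 6 stood apart. The summed level of the 8 neuroendocrine markers listed, among them Chga and Syp, was 4126 to 6367 CPM in PRMK, 7287 and 3013 CPM in PRM 4 and 5, and 76.1 CPM in PRM 6. The 7 neurone markers summed to 1180 to 1469 CPM in PRMK, 1192 and 2094 CPM in PRM 4 and 5, and 135.5 CPM in PRM 6. The 4 epithelial markers summed to 2814 CPM in PRM 6, against 159.4 and 48.6 CPM in PRM 4 and 5, and to 517.1 to 2860 CPM in PRMK. The 6 fibroblast markers summed to 61.4 to 239.5 CPM in PRMK and to 256.4, 3.08 and 100.2 CPM in PRM, and the 4 immune markers listed to 449.1 to 649.6 CPM in PRMK and to 469.9, 5.55 and 90.6 CPM in PRM. The 3 non-neuroendocrine markers analysed, of 7 listed, summed to 22.2, 30.4 and 29.4 CPM in PRMK and to 30.7, 29.3 and 214.9 CPM in PRM. Myc, the driver expressed in both genotypes, stood at 273, 312 and 205 CPM in PRMK and at 1140, 2306 and 2059 CPM in PRM, without overlap (log2 fold change -2.80 ± 0.36, edgeR adjusted p = 0.158, DESeq2 adjusted p = 1.57e-10), and its part in the members' levels was not tested. In bulk libraries, fewer cells of a type and less RNA per cell cannot be told apart.

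PRMK tumours were compared with PRM tumours to ask which parts of the release machinery differ between them. Only the PRM RNA labels name a stranded kit, so genotype and library preparation cannot be told apart in any difference below. The 2 members that DESeq2, the alternative tool, called higher in PRMK were Sv2b, a vesicle glycoprotein, and Syt5, a calcium-binding synaptotagmin. Their log2 fold changes were 4.24 ± 0.92 and 3.60 ± 1.36 by edgeR (SE, n = 3 and 3). DESeq2 gave 4.25 ± 0.84 and 3.61 ± 1.20. The Syt5 call ended in 5 of 6 omissions of a library. The third Sv2 gene, Sv2c, went the other way at -4.48 ± 1.47. The 12 neuronal core genes reported were spread from -1.03 to 2.68, and every one of the 12 had its lowest level in PRM 6. No member passed the main test, edgeR's quasi-likelihood test with Benjamini-Hochberg adjustment over all 13914 genes, which also called 0% of all genes. At an unadjusted p under 0.05, edgeR found 6 of the 61 members, 5 higher and 1 lower. Of all 13914 genes it found 2384, with 978 higher and 1406 lower. DESeq2 called 2 members higher, beside 3.9% of all genes, and 1 lower, beside 4.86% of all genes. All 3 PRMK libraries lay above all 3 PRM libraries for 16 of the 61 members, or below them for 1, where 15.1% of all genes tested were higher and 14.6% lower in that way. Over the 61 members the median log2 fold change was 0.36 and 44 lay above 0. Over all genes it was -0.024, with 6762 of 13914 above 0.

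**Figure D1:**
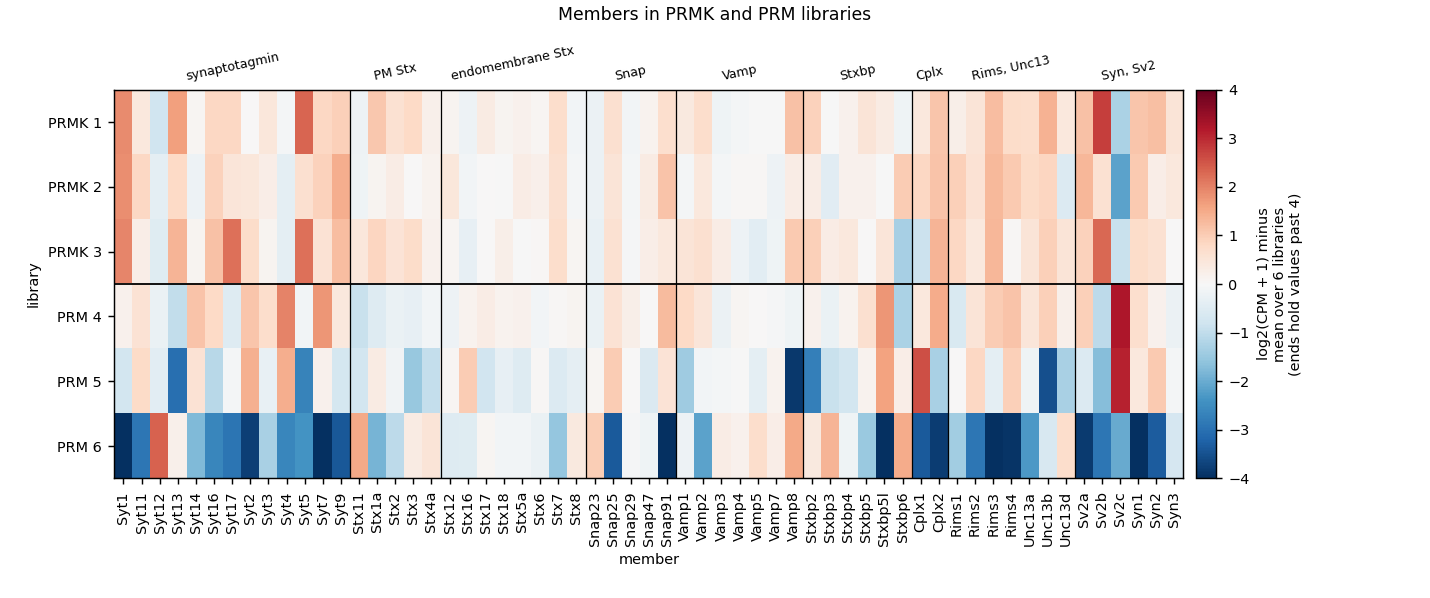
Heat map of 59 of the 61 members tested in PRMK versus PRM, grouped by role, with members in columns and the 6 libraries in lines. Colour gives log2(CPM + 1) minus the member's own mean over the 6 libraries. Dividers separate the roles, and the colour ends hold values past 4. Over the 61 members, PRM 6 holds the lowest value for 35 and the highest for 12.

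The Sv2 proteins are transporter-like glycoproteins of the vesicle membrane, and SV2A is the binding site of the antiseizure drug levetiracetam. Sv2b stood at 80.6, 17.4 and 58.8 CPM in PRMK and at 4.86, 2.69 and 0.623 CPM in PRM, a mean of 52.3 ± 32.1 against 2.72 ± 2.12 CPM (SD, n = 3 each). The lowest PRMK library was above the highest PRM library. Its edgeR log2 fold change of 4.24 ± 0.92 had an adjusted p of 0.19, and its DESeq2 value of 4.25 ± 0.84 an adjusted p of 4.6e-05. DESeq2 called Sv2b whichever of the 6 libraries was left out. Sv2c stood at 2.21, 0.731 and 3.17 CPM in PRMK and at 71.4, 64.7 and 0.89 CPM in PRM. PRM 4 and 5 were far above every PRMK library, while PRM 6 lay among them, so the groups overlapped. Its edgeR log2 fold change of -4.48 ± 1.47 had an adjusted p of 0.235. The DESeq2 value was -4.48 ± 1.21 (adjusted p = 0.00642), and without PRM 6 it was -5.05 ± 0.64 (adjusted p = 5.95e-13). Sv2c met no rule for full description, as its groups overlapped. It was added because its values stood out, and is counted among the 15 members described in full. Sv2a stood at 95.5, 108 and 79.9 CPM in PRMK and at 82.2, 28.5 and 2.05 CPM in PRM. PRM 4 lay within the PRMK range, and the log2 fold change of 1.33 ± 1.05 had an edgeR adjusted p of 0.54. In the authors' deposited table the same 3 members, Sv2b, Sv2c and Syt5, had an adjusted p under 0.05, with log2 fold changes of 4.31, -4.42 and 3.66.

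The stretches where transcription of these genes starts are shown because the Sv2 trio and Syt1 also differed in the peak lists described further on, and Syn1 is printed beside them as a neuronal promoter of well-known make-up. Each is a RefSeq window of 300 bases, 250 before and 50 after the annotated start, on GRCm38.p6 and read 5′ to 3′ on the gene's own strand. Capitals mark matches, on either strand, to CAGCTG (an E-box, a site of basic helix-loop-helix factors), CAGCACC (the left part of the RE1 element bound by the repressor REST) or TGACG (the core of the cyclic AMP response element). Sv2a lies at chr3:96180977-96181276 (+), Sv2b at chr7:75309213-75309512 (-), Sv2c at chr13:96132528-96132827 (-), Syt1 at chr10:109010926-109011225 (-) and Syn1 at chrX:20920869-20921168 (-).
Sv2a: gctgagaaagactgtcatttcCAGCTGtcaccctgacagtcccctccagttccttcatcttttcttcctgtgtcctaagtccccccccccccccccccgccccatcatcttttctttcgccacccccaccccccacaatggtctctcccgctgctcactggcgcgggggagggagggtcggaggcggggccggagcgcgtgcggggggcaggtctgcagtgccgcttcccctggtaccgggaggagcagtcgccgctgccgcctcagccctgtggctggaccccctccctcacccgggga
Sv2b: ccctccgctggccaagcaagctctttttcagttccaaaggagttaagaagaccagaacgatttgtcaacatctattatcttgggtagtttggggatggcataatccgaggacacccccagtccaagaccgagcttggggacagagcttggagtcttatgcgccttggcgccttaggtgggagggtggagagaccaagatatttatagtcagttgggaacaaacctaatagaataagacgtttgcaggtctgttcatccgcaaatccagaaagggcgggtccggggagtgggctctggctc
Sv2c: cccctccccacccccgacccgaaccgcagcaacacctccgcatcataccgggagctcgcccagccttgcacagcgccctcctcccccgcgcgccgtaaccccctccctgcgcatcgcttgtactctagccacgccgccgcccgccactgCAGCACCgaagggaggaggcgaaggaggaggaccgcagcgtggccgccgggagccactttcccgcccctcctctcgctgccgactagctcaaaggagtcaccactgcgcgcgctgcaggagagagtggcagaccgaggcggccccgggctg
Syt1: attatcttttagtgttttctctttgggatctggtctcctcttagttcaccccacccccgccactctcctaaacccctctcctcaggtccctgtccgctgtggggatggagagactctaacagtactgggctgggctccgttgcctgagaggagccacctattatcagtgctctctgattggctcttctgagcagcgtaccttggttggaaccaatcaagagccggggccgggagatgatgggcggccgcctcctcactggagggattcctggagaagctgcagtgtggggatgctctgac
Syn1: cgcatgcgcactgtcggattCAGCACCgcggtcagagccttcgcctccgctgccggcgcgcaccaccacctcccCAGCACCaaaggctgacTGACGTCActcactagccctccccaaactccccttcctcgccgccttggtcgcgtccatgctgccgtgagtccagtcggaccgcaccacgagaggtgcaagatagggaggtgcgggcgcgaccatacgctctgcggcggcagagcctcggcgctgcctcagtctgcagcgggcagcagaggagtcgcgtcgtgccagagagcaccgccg
Positions are those of a match's first base as printed, counted from the start. The Sv2a window held 1 E-box at -229, and the Sv2c window 1 RE1 match at -101. The Syn1 window held 2 RE1 matches, at -230 and -176, and overlapping TGACG matches on both strands at -159 and -156. No match lay in the Sv2b or Syt1 window. G and C made up 68.0% of the Sv2a window, 71.7% of the Sv2c window and 68.3% of the Syn1 window, against 51.3% for Sv2b and 56.7% for Syt1. Among the 53 members with such a window the E-box was found in 15 (28.3%), the RE1 part in 7 (13.2%) and the CRE core in 13 (24.5%). The same letters were in 16.1%, 7.1% and 20.9% of all 27025 windows. The members' windows had a median GC share of 64.0% against 52.7% over all windows, and its part in these shares was not tested.

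Synaptotagmins carry paired calcium-binding domains on a vesicle anchor. Syt1, the fast calcium sensor of neurones, stood at 484, 478 and 506 CPM in PRMK and at 147, 78.5 and 2.85 CPM in PRM. The PRMK libraries were close together and all above PRM, which spread widely, with means of 489 ± 14.8 and 76.1 ± 72.0 CPM (SD, n = 3 each). The log2 fold change was 2.68 ± 1.14 by edgeR (adjusted p = 0.30) and 2.69 ± 1.03 by DESeq2 (adjusted p = 0.0801). Without PRM 6 it was 2.13 ± 0.34 by DESeq2, with an adjusted p of 2.71e-08. Syt5 stood at 36.3, 10.8 and 33.5 CPM in PRMK and at 5.96, 0.168 and 0.445 CPM in PRM. The groups did not overlap, and the difference had an edgeR adjusted p of 0.266 and a DESeq2 adjusted p of 0.0364. The call changed when a library was left out. Without PRM 4, the PRM library with the most Syt5, edgeR gave 6.43 ± 0.96 with an adjusted p of 0.0434, while DESeq2 called Syt5 in none of the other 5 omissions. PRM 5 and 6 held only 3 and 5 Syt5 reads. Without PRM 4, edgeR called 5.59% of all genes.

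The other synaptotagmins did not move as one. All 3 PRMK libraries were above PRM also for Syt9, a fast sensor in some neurones, at 66.4, 94.5 and 80.4 against 45.6, 20.1 and 2.31 CPM, and for Syt13, a form that lacks calcium binding, at 54.7, 29.8 and 44.9 against 8.15, 1.23 and 19.6 CPM. Syt16 and Syt17 were ordered likewise. Syt4, which is induced by activity, stood at 8.40, 6.58 and 6.50 CPM in PRMK, between the 38.5 and 26.1 CPM of PRM 4 and 5 and the 0.623 CPM of PRM 6. Syt7, the slow high-affinity sensor, stood at 404, 433 and 342 CPM in PRMK and at 788, 258 and 11.1 CPM in PRM, on both sides of the PRMK range. Syt12 was the synaptotagmin with the lowest fold change, -2.89 ± 1.24 (edgeR adjusted p = 0.302), and its only library above 1 CPM was PRM 6, at 10.5 CPM. Of the 13 synaptotagmins tested, 9 lay above 0 and 4 below, with a median log2 fold change of 0.44. In 6 of them every PRMK library was higher, as in 15.1% of all genes tested. Summed over the family the level was 1550, 1670 and 1556 CPM in PRMK and 1696, 1096 and 104.6 CPM in PRM, so PRM 4 lay above all 3 PRMK libraries in sum.

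**Figure D2:**
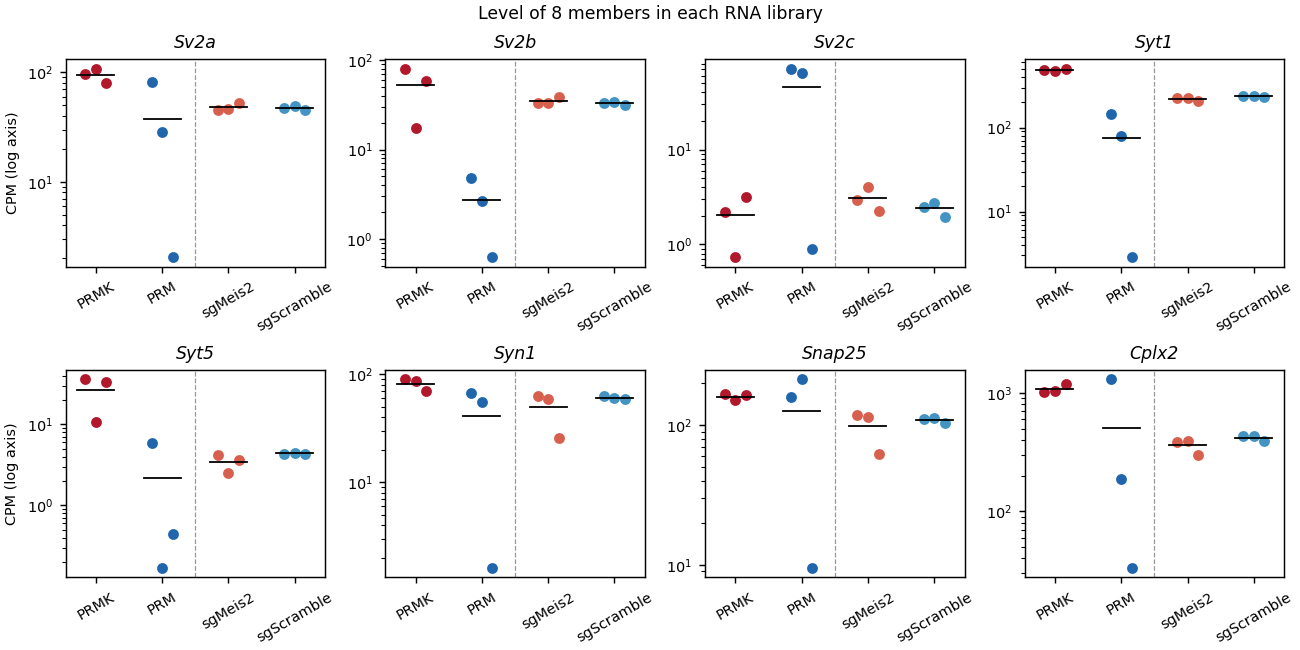
Levels of 8 members in all 12 RNA libraries, as CPM on a log axis, with 1 point per library and a bar at the mean of its group. The dashed line parts 2 tables that were scaled separately. PRM points lie below every PRMK point for Sv2b, Syt1, Syt5 and Syn1. Most sgMeis2 and sgScramble points lie close to each other, but library sgMeis2 3 lies lower for Snap25 (62.5 CPM) and Syn1 (25.7 CPM).

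The membrane fusion complex itself showed overlapping groups for Stx1a, Snap25 and Vamp2. Stx1a, a plasma membrane syntaxin of neurones, stood at 72.7, 36.5 and 63.3 CPM in PRMK and at 23.6, 43.5 and 8.63 CPM in PRM. PRM 5 reached into the PRMK range, and the log2 fold change was 1.19 ± 0.60 (edgeR adjusted p = 0.362). Snap25, the neuronal partner of Stx1a, stood at 167, 151 and 164 CPM in PRMK and at 159, 215 and 9.53 CPM in PRM. Vamp2, the vesicle-side partner, stood at 214, 177 and 207 CPM in PRMK and at 184, 123 and 29.4 CPM in PRM. The lowest value of both came from PRM 6, at the same time as PRM 5 held the highest Snap25, and the log2 fold changes were 0.33 ± 0.92 and 0.83 ± 0.60 (edgeR adjusted p = 0.876 and 0.508). Without PRM 6 that of Snap25 was -0.21.

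Among the 6 plasma membrane syntaxins tested, Stx2 was the only one higher in every PRMK library. It stood at 49.8, 39.4 and 47.3 CPM in PRMK and at 26.2, 28.9 and 15.1 CPM in PRM, with a log2 fold change of 0.96 ± 0.31 (edgeR adjusted p = 0.235). Of the 8 syntaxins of endosome, Golgi and endoplasmic reticulum, Stx7, a late endosome syntaxin, was ordered that way. It stood at 145, 139 and 147 CPM in PRMK and at 93.3, 61.3 and 29.8 CPM in PRM (log2 fold change 1.23 ± 0.41, edgeR adjusted p = 0.237). The 8 summed to 585.1, 613.6 and 560.7 CPM in PRMK and to 538.3, 603.5 and 381.7 CPM in PRM, so the shortfall of PRM 6 was smaller there than for the synaptotagmins. The 7 Vamp genes had a median log2 fold change of 0.03 and none was separated between the groups. Snap23, the form of Snap25 found in most tissues, stood at 19.1, 19.3 and 18.5 CPM in PRMK and at 18.7, 23.9 and 46.0 CPM in PRM. Vamp8, of secretory granules and endosomes in epithelia and blood cells, was lowest in PRM 5 at 0.224 CPM and highest in PRM 6 at 49.9 CPM. Snap29, which serves autophagosome fusion, was the only one of the 61 members tested that lay below PRM in every PRMK library, at 18.7, 19.0 and 19.4 against 24.1, 20.6 and 19.7 CPM, a log2 fold change of -0.17 ± 0.25 that edgeR did not call (adjusted p = 0.743).

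Complexins bind the assembled complex and hold it until calcium arrives. Cplx1 stood at 79.2, 105 and 32.0 CPM in PRMK and at 79.7, 356 and 4.81 CPM in PRM (-1.03 ± 1.26, edgeR adjusted p = 0.694). Cplx2 stood at 1021, 1040 and 1194 CPM in PRMK and at 1311, 189 and 33.2 CPM in PRM (1.09 ± 1.14, edgeR adjusted p = 0.645). The complexins thus parted within PRM: PRM 5 had the highest Cplx1 and a low Cplx2, while PRM 4 had the highest Cplx2. Without PRM 5 the Cplx1 value was 0.77. Stxbp5l, a tomosyn that holds back fusion, stood at 31.5, 24.8 and 35.7 CPM in PRMK and at 87.3, 77.7 and 0.445 CPM in PRM.

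Active zone and priming genes all had fold changes above 0. Of the 7 tested, the median was 0.94, the range 0.16 to 1.40, and 3 were higher in every PRMK library, as were 15.1% of all genes tested. Rims1, a scaffold that binds Rab3 and Unc13, stood at 9.17, 15.7 and 14.4 CPM in PRMK and at 4.76, 7.74 and 2.31 CPM in PRM. The log2 fold change was 1.40 ± 0.55 (edgeR adjusted p = 0.276, DESeq2 adjusted p = 0.0949). Rims2, its paralogue, stood at 80.4, 84.0 and 74.9 CPM in PRMK and at 80.5, 99.7 and 6.59 CPM in PRM (0.36 ± 0.83, edgeR adjusted p = 0.848). Rims2 was within or above the PRMK range in PRM 4 and 5, and its value without PRM 6 was -0.17. Unc13a, the main priming factor of excitatory synapses, stood at 253, 268 and 223 CPM in PRMK and at 220, 137 and 30.8 CPM in PRM (0.94 ± 0.64, edgeR adjusted p = 0.483). Its groups did not overlap, but PRM 4 lay just under the lowest PRMK library.

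Synapsins tether vesicles to each other and to actin. Syn1 stood at 89.9, 86.0 and 69.5 CPM in PRMK and at 66.5, 54.9 and 1.60 CPM in PRM, again without overlap and with a narrow gap to PRM 4 (0.99 ± 1.05, edgeR adjusted p = 0.648). Syn2 stood at 65.0, 33.5 and 42.6 CPM in PRMK and at 31.2, 58.4 and 1.87 CPM in PRM, and PRM 5 exceeded 2 of the PRMK libraries (0.62 ± 1.00, edgeR adjusted p = 0.772). Syn1 overlaps Timp1 and Araf, and Syn2 overlaps Timp4, among the 12 members whose gene body overlaps another coding gene. How strand was counted is not stated, so reads of such partners cannot be told apart from theirs.

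Library PRM 6 was the lowest of the 6 for 35 of the 61 members (57.4%), while it was lowest for 29.3% of all genes tested. It was the highest for 12 members (19.7%, against 24.6% of all genes), Snap23, Stx4a, Stx8, Stx11, Stxbp3, Stxbp6, Syt12, Unc13d, Vamp4, Vamp5, Vamp7 and Vamp8, which include forms found outside neurones. Members took 0.641%, 0.624% and 0.618% of the counts in PRMK and 0.654%, 0.408% and 0.13% in PRM, so in PRM 4 the share was above every PRMK library. The neuroendocrine and neurone marker sums given above were also lowest in PRM 6, and their part in the members' levels was not tested. When PRM 6 was left out, DESeq2 called 7 members higher (Stx2, Stx3, Stx7, Sv2b, Syt1, Syt9, Syt13) and 4 lower (Stxbp5l, Sv2c, Syt4, Syt14), with no overlap between groups for any of the 11, while it called 15.1% of all genes. edgeR called none. In that setting 21 members were higher in every PRMK library and 8 lower, where the shares over all genes were 22.8% and 22.3%. Syt4 then stood 2.17 ± 0.33 lower on the log2 scale (DESeq2 adjusted p = 9.72e-09). Leaving out PRM 4 gave 10 members higher and 2 lower by DESeq2, beside 28.5% of all genes called, and leaving out PRM 5 gave 5 and 2, beside 10.1%.

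**Figure D3:**
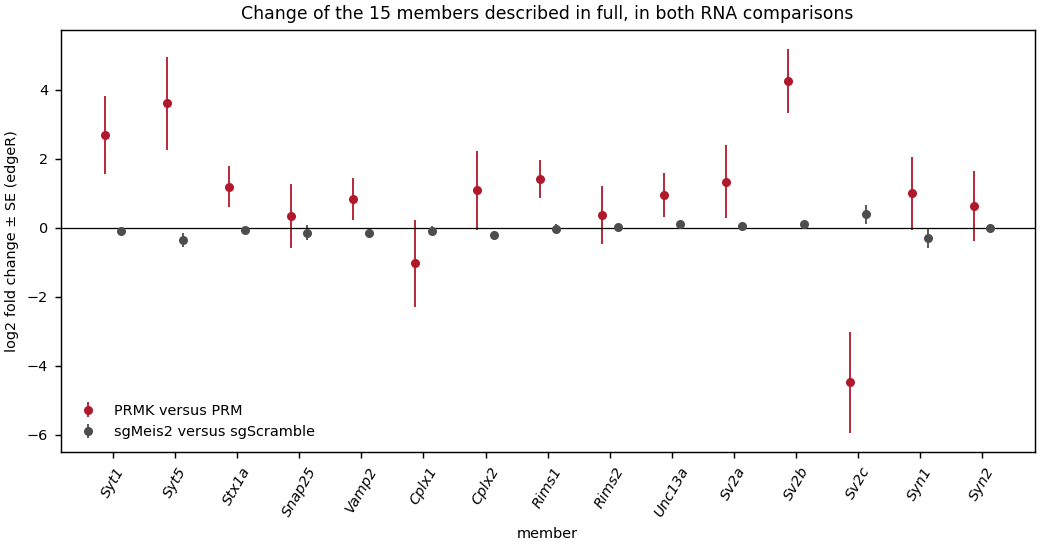
Log2 fold changes of the 15 members described in full, with bars of 1 SE from edgeR, for PRMK versus PRM and for sgMeis2 versus sgScramble. Sv2b, Syt5 and Syt1 lie highest and Sv2c lowest in the first comparison, with wide bars, while the second stays between -0.36 and 0.38.

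Genes that work with the members, called companion genes here, were read from a list of 73 names, of which 67 were in the table and 63 tested. edgeR called 0 of them. At an unadjusted p under 0.05 it found 6, all higher, beside 978 genes higher and 1406 lower of all 13914. DESeq2 called 5 higher and 0 lower, beside the 3.9% and 4.86% of all genes. In 17 the PRMK libraries all lay above PRM, and in 2 below, beside 15.1% and 14.6% of all genes. Synpr, a synaptophysin relative of the vesicle membrane, stood at 10.9, 10.9 and 8.04 CPM in PRMK and at 0.209, 0.28 and 0 CPM in PRM (DESeq2 adjusted p = 5.33e-14). Tspoap1, which binds Rims and calcium channels, stood at 5.19, 2.30 and 4.83 CPM in PRMK and at 0.209, 0.168 and 0.178 CPM in PRM. Sytl1, a synaptotagmin-like effector of Rab27, stood at 19.7, 9.76 and 14.3 against 0.523, 0.168 and 2.23 CPM. Rab3d, a small GTPase of secretory granules, stood at 106, 81.1 and 103 CPM in PRMK and at 49.7, 22.3 and 22.5 CPM in PRM. In each of these 4 every PRM library, PRM 4 and 5 included, was below every PRMK library. Of the 5 genes tested from the list for the RE1 pathway, which silences neuronal genes, none was called by edgeR or DESeq2, and Rest itself was not analysed here. Rcor1, a corepressor of REST, stood at 92.5, 91.6 and 82.9 CPM in PRMK and at 101, 137 and 143 CPM in PRM, lower in every PRMK library. Srrm3, a splicing regulator of neuronal microexons, was higher in every PRMK library, at 103, 121 and 84.9 against 56.9, 79.6 and 3.38 CPM. The remaining genes tested from this list overlapped between the groups. Of all genes tested, 14.6% were lower and 15.1% higher without overlap, as Rcor1 and Srrm3 were.

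The guide against Meis2 was compared with the scrambled guide inside the PRMK background. In these libraries the 6 fibroblast markers summed to 5.01 to 7.87 CPM and the 6 immune markers to 2.84 to 5.35 CPM. The PRMK libraries of the first comparison had 61.4 to 239.5 CPM and, for the 4 immune markers listed there, 449.1 to 649.6 CPM. The reason for this difference in content was not tested. Meis2 had 139, 215 and 272 CPM in PRMK and 0.889, 1.46 and 17.3 CPM in PRM in the first comparison. In this second comparison it stood at 219, 224 and 137 CPM in sgMeis2 libraries 1 to 3 and at 259, 227 and 233 CPM in sgScramble libraries 1 to 3 (-0.31 ± 0.19, edgeR adjusted p = 0.754), so its transcript gives no clear check of the guide. None of the 61 members tested was called by edgeR, which called 0% of all 16260 genes, nor by DESeq2, which called 0.0185% higher and 0.117% lower. At an unadjusted p under 0.05, edgeR found 760 of the 16260 genes and 2 of the 61 members, Stx16 and Unc13b. Both were slightly higher with the Meis2 guide, by log2 fold changes of 0.25 ± 0.10 and 0.26 ± 0.10. The members' median log2 fold change was -0.03, the range -0.44 to 0.38, and 26 lay above 0.

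Member by member the 6 libraries of this comparison mostly lay close together. Syt1 stood at 227, 227 and 209 CPM with the Meis2 guide and at 237, 238 and 233 CPM with the scrambled guide. It was lower in every sgMeis2 library, by -0.09 ± 0.07 on the log2 scale (edgeR adjusted p = 0.754). Cplx2 was also lower in each, at 386, 393 and 302 against 433, 432 and 396 CPM. Sv2b stood at 33.3, 33.4 and 38.4 against 32.8, 33.7 and 31.9 CPM, and Sv2c at 2.95, 4.07 and 2.25 against 2.48, 2.75 and 1.94 CPM. Both overlapped between the groups. Syt5, at 4.17, 2.52 and 3.59 against 4.32, 4.46 and 4.34 CPM, was lower in each sgMeis2 library, by 0.36 ± 0.21 on the log2 scale. All 3 sgMeis2 libraries were above sgScramble for 5 members (Stx6, Stx16, Stxbp5, Unc13a, Unc13b) and below for 5 (Cplx2, Stx18, Syt1, Syt3, Syt5), beside 8.12% and 7.92% of all genes. Library sgMeis2 3 held the lowest value for 22 members and the highest for 21, or 36.1% and 34.4%, where it did so for 37.5% and 36.5% of all genes. Snap25 was 62.5 CPM there against 104 to 119 CPM in the other 5 libraries, and Syn1 25.7 CPM against 58.5 to 62.9 CPM. Of the companion genes, 61 were tested and neither edgeR nor DESeq2 called any. At an unadjusted edgeR p under 0.05 there were 3, beside 760 of all 16260 genes.

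In the peak lists a member was counted as gained when both PRMK libraries and neither PRM library had a peak over its gene body, and lost in the opposite case. With 2 libraries a group no test was made. A longer gene can hold more peaks and lengths were not matched, so each count stands beside the same share over 49603 genes. Those include non-coding genes, and gains and losses were not counted over coding genes alone. H3K4me3, the mark of active starts, lay over 57 to 60 of 69 members per library, and over 33.0% to 36.6% of all genes or 59.4% to 63.6% of coding genes. It was kept in all 4 libraries at 57 members (31.2% of all genes), gained at 0 and lost at 0 (0.323% and 0.71% of all genes). Within 1 kb of the annotated start, which 53 members and 27025 genes have, it was kept at 42 (39.8%), gained at 0 and lost at 0 (0.322% and 0.681%). H3K4me2, which covers starts and enhancers, was kept at 52 members (32.4%), gained at 2, Sv2a and Rims4 (1.71%), and lost at 0 (0.347%). At starts it was gained only at Sv2a (1.99%) and lost at 0 (0.292%). With equal list lengths the gain at Sv2a was no longer found, over the body or at the start.

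**Figure D4:**
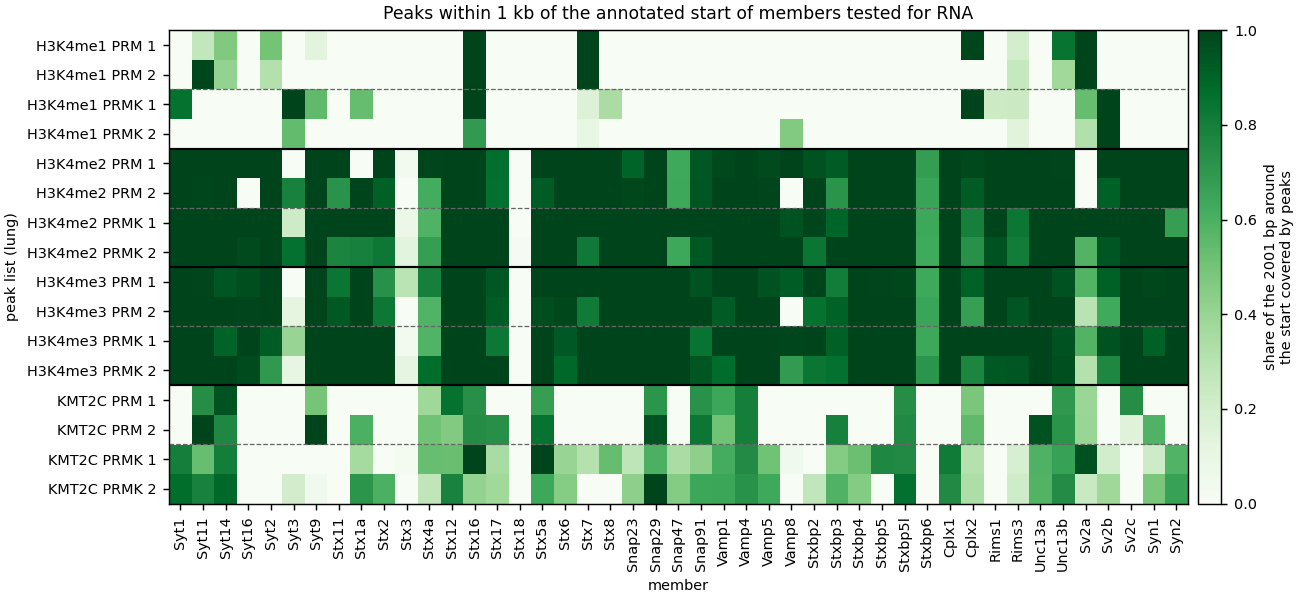
Share of the 2001 bases within 1 kb to either side the start of 45 members, as a share shown by colour, for each mark and each lung library (lines). H3K4me2 and H3K4me3 fill most windows in both genotypes, and H3K4me1 fills few. Sv2b and Syt1 are among the windows that hold KMT2C only in PRMK, where the KMT2C lists are longer. With equal list lengths only Syt1 was still gained.

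H3K4me1, the mark laid at enhancers by KMT2C and its relative KMT2D, was present over 37 to 43 members per lung library and over 20.9% to 27.9% of all genes. It was gained at 4 members, Stx1a, Unc13d, Stxbp5l and Cplx4 (4.36% of all genes), lost at 4, Cplx3, Unc13c, Stxbp6 and Syt12 (2.77%), and kept at 29 (14.1%). Around starts it was gained at 3, Sv2b, Syt3 and Syt6 (2.99%), and lost at 4, Syt2, Syt11, Syt14 and Unc13b (2.17%). Sv2b showed the fullest gain. H3K4me1 covered 0 and 0 of the 2001 bases around its start in PRM and 2001 and 2001 in PRMK, and over the body 6.79% and 5.44% in PRM against 22.1% and 15% in PRMK. H3K4me2 covered 2001 and 1819 bases of that window in PRM and 2001 and 1886 in PRMK, and H3K4me3 1820 and 1252 in PRM and 1911 and 1532 in PRMK, so both were there in each genotype. With every list cut to the length of the shortest, H3K4me1 was still gained at the Sv2b start. The RNA and the peak libraries are different samples.

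KMT2C peaks were gained over 26 of 69 members (22.6% of all genes), kept at 24 (14.4%) and lost at 0 (0.177%). Around starts 13 were gained (17%) and 1, Sv2c, was lost (0.118%). Over gene bodies KMT2C was present at 27.3% and 37.4% of coding genes in PRM and at 76.3% and 72.7% in PRMK. Over all genes the shares were 15.6% and 21.5% in PRM and 53.2% and 48.8% in PRMK. The lists differed in length: 9949 and 16681 peaks in PRM against 187682 and 134561 in PRMK. Their depth is not known, so more called regions and more binding cannot be told apart. The labelled PRMK tumours, with a guide against Kmt2c, thus had the longer KMT2C lists. With equal list lengths only 2 members were gained, Sv2a and Syt1, beside 1.92% of all genes, and 3 lost, Cplx3, Syn3 and Sv2c, beside 2.38%. At the Syt1 start KMT2C covered 0 and 0 bases in PRM and 1601 and 1742 in PRMK, with 0 and 0 peaks over the gene body against 41 and 29. At the Sv2b start it covered 0 and 0 bases in PRM and 413 and 753 in PRMK. At the Sv2c start, in the opposite order, it covered 1480 and 294 bases in PRM and 0 and 0 in PRMK, while H3K4me2 and H3K4me3 filled all 2001 bases in each library. With equal list lengths the start windows gained KMT2C only at Syt1 (1.72% of all genes) and lost it only at Syt9 (1.95%), so the start differences of Sv2b and Sv2c were no longer found. At the Sv2a start H3K4me2 covered 0 and 0 bases in PRM and 2001 and 1158 in PRMK, while H3K4me3 covered 1159 and 585 in PRM and 1158 and 622 in PRMK.

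Liver PRM samples allowed H3K4me1 and KMT2C to be compared with lung PRM, with gained now meaning a peak in both liver libraries and neither lung library. H3K4me1 was gained at 0 members (0.899% of all genes), lost at 0 (0.206%) and kept at 36 (17.9%). KMT2C was gained at 20 (15%), lost at 0 (0.121%) and kept at 24 (14.6%), again with longer lists in liver, of 65201 and 113129 peaks. Syt1 was among the members gained in liver PRM, over its body and also at its start. With equal list lengths Syt1 was gained in neither way there. At the Sv2c start KMT2C covered 2001 and 2001 bases in liver, and at the Sv2b start H3K4me1 covered 0 and 0. Open chromatin was gained at 0 members (0.0121%) and lost at 7, Cplx3, Snap25, Stxbp3, Stxbp4, Sv2c, Unc13a and Vamp1 (2.36%). PRMK library 1 held only 565 regions and covered 0 members, so a gain could hardly be found. PRMK library 2 held 54175 regions and covered 48 members, and the PRM libraries held 64575 and 19815 and covered 52 and 37. As PRMK library 1 covered 0 members, leaving it out could not change the 7 lost (2.36% of all genes). On the PRMK side those losses rest on library 2 alone. Without PRMK library 1 the count gained was 7 (6.74%), and without PRMK library 2 the count lost was 35 (19.1%). The equal-length setting cut every ATAC list to 565 regions. The liver PRM lists held 313 and 120 regions, covered 1 and 0 members, and entered no comparison.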

How the data were processed

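The members and gene lists were chosen with earlier results of these data known. RNA reads went through STAR 2.6.0a against GRCm38, per the submitters' processing notes, and the authors deposited raw counts per gene, read here from 12 columns. The deposited tables also hold the authors' log2 fold changes and adjusted p-values. Their columns named tpm did not behave as TPM and were left out, so levels were compared within a gene and not between genes. ATAC reads were aligned with Bowtie2 2.2.1 to mm10, per the submitters' processing notes, and each deposited region carries a score. The sources used here name no caller for it. CUT&Tag peaks were called with SEACR, per the same notes, and the deposited lists give total signal per peak.

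Counts were tested with edgeR 4.0.16 in R 4.3.3 (TMM, filterByExpr, quasi-likelihood, adjusted p under 0.05 over all genes), with SE taken as the fold change over the root of F, and DESeq2 1.42.0 as an alternative. Scripts were tested on simulated data. Gene IDs gave symbols to 24552 of 24781 unnamed genes of the sgMeis2 table. Members were matched by symbol to RefSeq GRCm38.p6 for 69 gene bodies and 53 starts, with pandas 2.3.3 and numpy 2.4.6 under Python 3.11.15 (figures: matplotlib 3.10.9). Vamp7 was not placed. A peak counted from 1 bp of overlap. The rule for full description takes the core genes, edgeR calls, and DESeq2 calls without overlap in PRMK versus PRM. A few genes it or the lists take are not reported here, and 12 core genes are. They stay in sums and counts. Others are examples, chosen with their values known. The titles number the PRM RNA samples 3 to 5 and the columns 4 to 6. Only the PRM RNA labels name a stranded kit, so library preparation and genotype cannot be told apart. Alternatives were DESeq2, its size factors, no filter, a replicate block, each library left out, start windows, 200 bp of overlap and equal list lengths.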

Additional observations from a re-analysis of the deposited data

How the results depend on the processing

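DESeq2 in place of edgeR called 3 members and 5 companion genes in PRMK versus PRM, where edgeR called 0 of each. Of all genes tested, DESeq2 called 3.9% higher and 4.86% lower. With DESeq2 size factors or no filter the edgeR counts stayed at 0. With 1 library left out, edgeR called 0 to 1 members and 0 to 4 companion genes, beside 0% to 5.59% of all genes. Members without overlap then ranged from 16 to 25 higher and from 1 to 8 lower, beside 16.1% to 27.1% and 15.6% to 23.6% of all genes. The 25 came without PRM 4, where 27.1% of all genes were higher. The log2 fold changes that turned direction in an omission ranged from -1.59 to 0.77 for Cplx1, -0.17 to 0.87 for Rims2 and -0.21 to 0.93 for Snap25. None of these was called in any of the fits, and the other 12 fully described members kept their direction. In sgMeis2 versus sgScramble the same omissions gave 0 members, with 7 to 11 higher and 6 to 12 lower without overlap, beside 11.5% to 15.2% and 11.4% to 14.5% of all genes. Values near 0 turned direction there, ranging from -0.154 to 0.026 for Cplx1, -0.064 to 0.03 for Rims1, -0.008 to 0.067 for Rims2, -0.30 to 0.10 for Snap25, -0.038 to 0.083 for Sv2a, -0.511 to 0.006 for Syn1 and -0.092 to 0.041 for Syn2. Once each gene's group mean was subtracted, same-numbered sgMeis2 and sgScramble libraries correlated at 0.013, -0.002 and 0.034. Libraries with different numbers correlated at -0.047 to 0.041. These values gave no sign of pairing, but 3 libraries a group cannot settle it. The fit with a replicate block called 0 members and 0 companion genes. No paired fit was made for PRMK and PRM, which share fewer than 2 replicate numbers.

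Counts of peaks moved more; the share of all genes stands in brackets. Within 1 kb of the start, ATAC was lost at 2 members (3.81%), H3K4me2 gained at 1 (1.99%), and lung KMT2C gained at 13 (17%) and lost at 1 (0.118%), while between liver and lung H3K4me1 was lost at 2 (0.414%) and KMT2C gained at 12 (13.3%). With equal list lengths over gene bodies, ATAC was lost at 1 (0.238%), H3K4me1 gained at 2 (3.21%), H3K4me2 gained at 1 (1.14%) and lost at 1 (0.843%), H3K4me3 gained at 1 (0.706%), and lung KMT2C gained at 2 (1.92%) and lost at 3 (2.38%), while between liver and lung H3K4me1 was gained at 1 (0.633%) and KMT2C gained at 3 (1.46%) and lost at 2 (1.24%). Both changes together, chosen after seeing the data, gave ATAC lost at 0 (0.3%), H3K4me1 gained at 2 (2.08%), H3K4me2 gained at 0 (1.37%), lung KMT2C gained at 1 (1.72%) and lost at 1 (1.95%), and between liver and lung H3K4me1 lost at 1 (0.64%) and KMT2C gained at 0 (1.23%) and lost at 1 (1.05%). With 1 peak library left out, members gained and lost were 0 to 7 (0.0242% to 6.74%) and 7 to 35 (2.36% to 19.1%) for ATAC, 4 to 7 (4.77% to 8.64%) and 4 to 7 (3.06% to 5.34%) for H3K4me1, 2 to 5 (1.88% to 4.31%) and 0 to 1 (0.49% to 1.41%) for H3K4me2, 0 to 2 (0.397% to 0.994%) and 0 (0.814% to 2.92%) for H3K4me3, and 27 to 38 (23.2% to 31.7%) and 0 (0.228% to 0.383%) for lung KMT2C. Between liver and lung they were 1 (1.12% to 4.65%) and 0 to 2 (0.3% to 1.73%) for H3K4me1 and 21 to 32 (15.6% to 24.5%) and 0 (0.155% to 0.258%) for KMT2C. The cause of these shifts was not tested beyond list length and window. The peak lists give no depth, so a missing peak is no proof of absence.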

Other observations

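H3K4me3 lay within 1 kb of the start in all 4 lung libraries at 42 of the 53 members that have an annotated start (39.8% of all starts), and these included members with little RNA. Syt6, a synaptotagmin whose counts were too low to be tested in PRMK versus PRM, stood at 0.158 to 1.57 CPM in the 6 libraries, and H3K4me3 covered 1485 and 1672 bases of its window in PRM and 2001 and 2001 in PRMK. Vamp5, a vesicle SNARE known from muscle, stood at 0.356 to 1.96 CPM and had the mark in 4 of 4 libraries as well. The mark was found in 3 of 4 libraries at Stx3, Syt3 and Vamp8. It was found in none at 8 members, Cplx3, Stx18, Stx19, Syt8, Syt10, Syt15, Unc13c and Vamp9. Stx18, a syntaxin of the endoplasmic reticulum, was the exception among these in RNA, at 13.8 to 20.9 CPM in the PRMK and PRM libraries, and another start than the annotated one was not tested. The order of marks at the Sv2a start was also mixed: H3K4me1 covered all 2001 bases in both PRM libraries and 1065 and 640 in PRMK, while H3K4me2 stood at 0 and 0 in PRM and 2001 and 1158 in PRMK, a gain no longer found with equal list lengths.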
